A study of Mus musculus with 2 samples.

Results

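Nuclear receptors are transcription factors, many of which are switched by small fat-soluble ligands such as steroid and thyroid hormones, vitamins A and D, and oxidised cholesterol. The 45 genes described here were chosen as named mouse members of this family, out of 20651 genes that could be named on the arrays. All 45 had at least 1 probe, and 66 probes covered them, with 19 genes on several probes and 26 on a single probe.

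A typical nuclear receptor binds DNA through a zinc-finger domain and its ligand through a separate domain of the protein. The retinoid X receptors pair with many of the others, among them the receptors for retinoic acid, thyroid hormone, vitamin D and oxysterols, and the pairs recognise repeats of the letters AGGTCA. Without ligand many of them hold corepressor complexes on their target genes, and with ligand they exchange these for coactivators. In T cells the glucocorticoid, retinoic acid and vitamin D receptors change cytokine production, and the NR4A receptors are switched on by signals from the T cell receptor.

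RNA came from mouse cells labelled as TH9 cells, helper T cells that make IL-9, from 2 genotypes with 1 array each. The cultures began from sorted spleen and lymph node cells of naive type, CD4+TCR+CD62Lhi CD44lo by the labels. Stimulation was with antibodies to CD3 and CD28 at 2 µg/ml each, with human IL-2 at 100 U/ml, and polarisation with TGFβ1 at 2 ng/ml and IL-4 at 10 ng/ml. It lasted 5 days, which the culture protocol gives as 5 to 6. The wild-type array stands against an array of SIRT1flox/flox-CD4-Cre cells, in which a Cre recombinase driven by the Cd4 promoter acts on floxed alleles of Sirt1, a protein deacetylase. By its title, the study asked how SIRT1 bears on the making of IL-9-producing helper cells. Age, sex and number of the mice are not given in the sources used here. With 1 array per genotype no difference has a replicate check and no test was possible. The error given after ± is that of the difference, combined from the scanner software's own errors on both arrays. It does not cover variation between cultures.

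Signals are processed intensities in scanner units, and a difference is the log2 signal over the array's 75th percentile (544 for the wild type and 520 for the other) on the array labelled knockout minus that on the wild-type array. Signals of different probes are not comparable as levels. The scanner software flagged 57.1% of wild-type gene spots and 65.3% of the others as well above background, and the lowest such signals were 24.6 and 9.76. Sirt1 itself had signals of 3240 and 2920 (difference -0.08 ± 0.20), which does not settle the knockout label, since the position of its probe is not known here. Il9, the cytokine that defines TH9 cells, stayed under that flag with both genotypes (5.48 and 7.36). Markers of other cell types were measured too. B cell markers were lower on the array labelled knockout in 9 of 10 genes (median difference -0.22, summed signal 111566 and 91657), and markers of NK and CD8 T cells were higher in 8 of 9 (median 0.40, 14034 and 31479, and 5244 and 6779 without Klra1). Cd79a and Blk among the B cell markers were at least 2-fold lower (-1.18 and -1.41). All 10 B cell markers and all 9 of NK and CD8 T cells carried the flag with both genotypes. So did the 10 T cell markers, with a median difference of 0.08 and summed signals of 70590 and 71120. They lay on both sides, from Cd3e (-1.13, past 2-fold), Cd28 (-0.81) and Cd3g (-0.71) to Lat (0.92). In RNA of a whole culture, fewer cells of a type and less RNA per cell cannot be told apart.

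Of the 45 receptor genes, 29 (64.4%) were well above background on both arrays, against 62.7% of all named genes. The other members comprised 7 seen on 1 array only and 9 on neither. Among the 29, 20 were higher on the array labelled knockout and 9 lower, and 50.4% of all genes measured on both arrays were higher. Their median difference was 0.21, with quartiles of -0.17 and 0.57, beside a median of 0.00 and quartiles of -0.30 and 0.28 over all 12958 such genes. An alternative named normexp took median instead of processed intensities, corrected the background by another method and added an offset of 50. With it the receptor median was -0.01 and that of all genes -0.06. The difference exceeded the scanner error upwards in 14 members (48.3%), against 29.9% of all genes, and downwards in 7 (24.1%), against 30.6%. The other 8 lay within their error.

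The receptors at least 2-fold higher on the array labelled knockout were Nr1h3, Vdr, Nr2f2 and Nr1i3. That is 4 of 29 members (13.8%), where 3.95% of all genes passed the same limit. None of the 29 was at least 2-fold lower, where 3.63% of all genes were. The balance over all genes moved with the scaling, from 512 higher and 471 lower here to 801 and 292 after centring on the median, which shifted the median of all genes to 0.19, and to 614 and 349 with quantile normalization. With normexp 206 genes were at least 2-fold higher and 1179 lower, and 2 receptors were on each side.

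**Figure D1:**
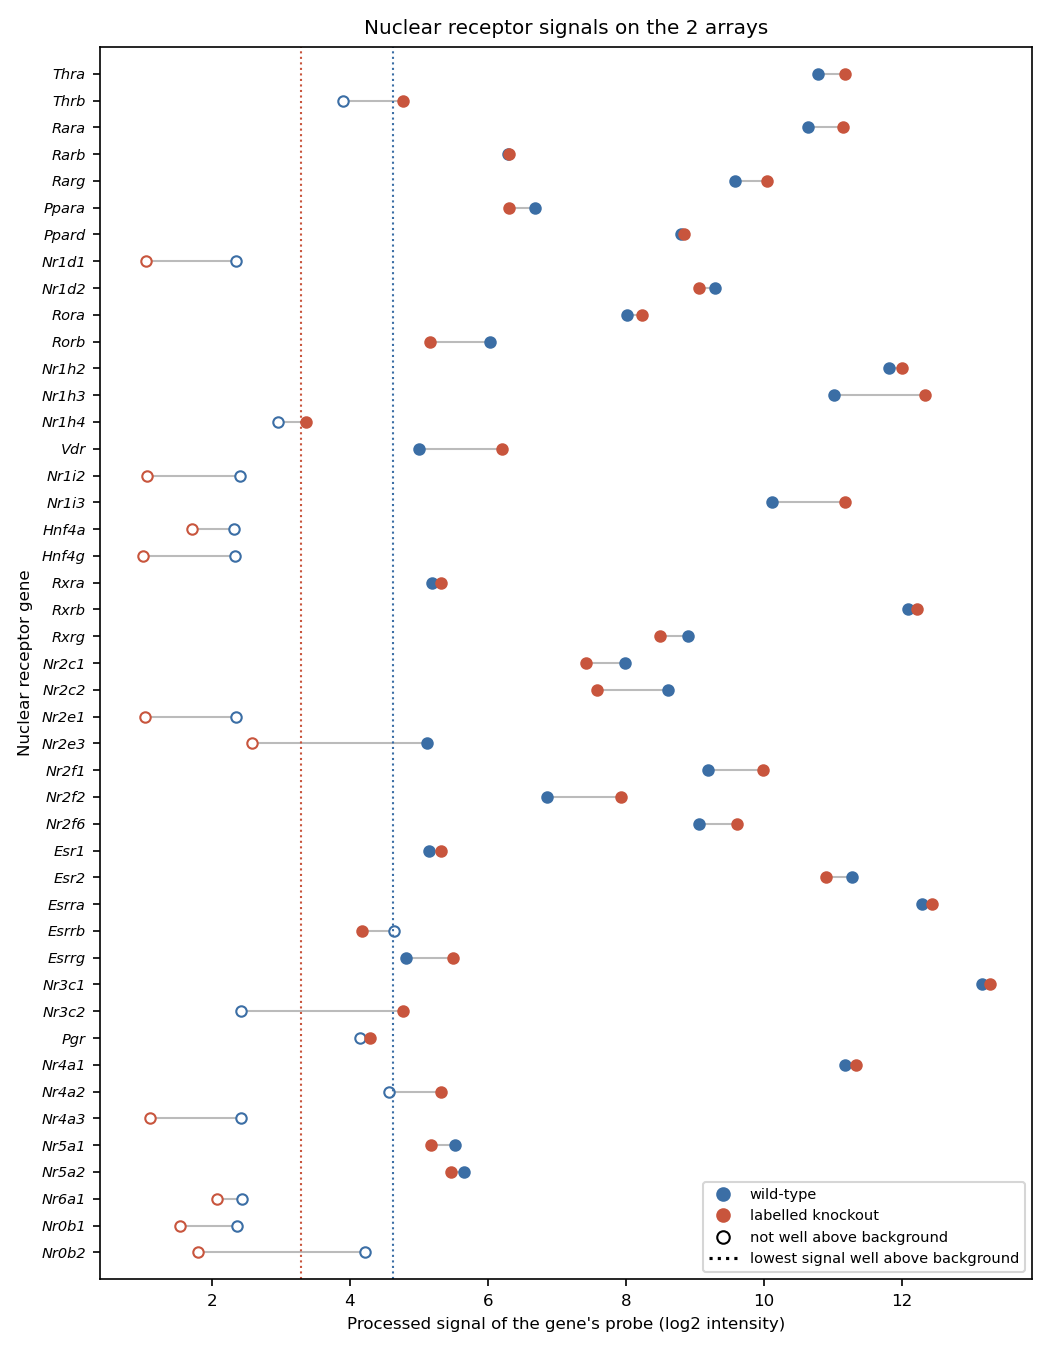
Processed signal (log2 intensity, horizontal axis) of each nuclear receptor gene on the wild-type array (blue) and the array labelled knockout (red), 1 array each, with open circles where the probe was not well above background and dotted lines at the lowest signal that was (24.6 and 9.76). Among pairs of filled circles the line is longest for Nr1h3, Vdr, Nr2f2 and Nr1i3, and nearly as long for Nr2c2. Lines with an open circle can be longer, as for Nr2e3, Nr3c2 and Nr0b2. Both circles are open for the 9 genes seen on neither array, such as Nr1d1, Hnf4a and Nr0b2.

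**Figure D2:**
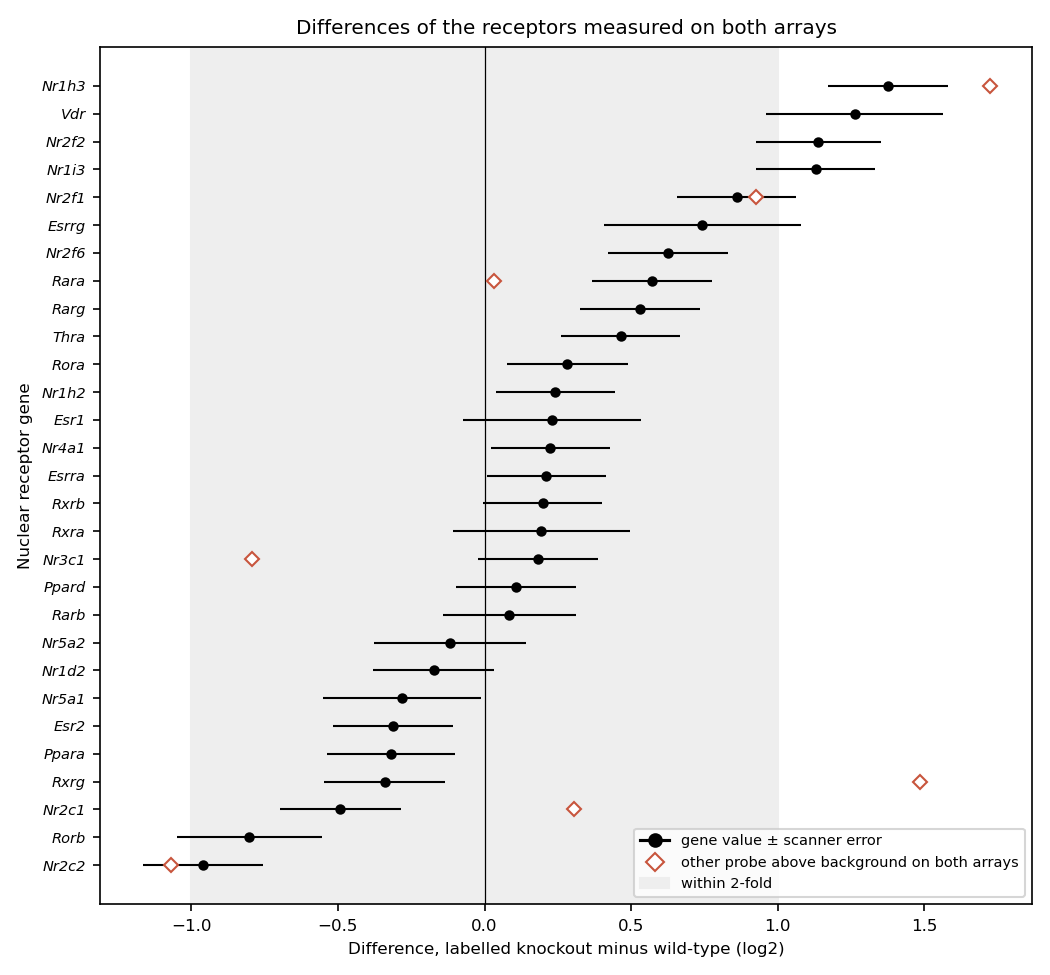
Difference in log2 signal (labelled knockout minus wild-type, horizontal axis) for the 29 receptor genes well above background on both arrays, with the scanner error as bars and further probes as open diamonds. The 4 genes at the top lie outside the shaded 2-fold range, and the second probes of Rxrg, Nr2c1 and Nr3c1 lie on the other side of 0 from the gene value.

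The sequence upstream of these 4 genes is printed so that they can be compared with the other family members. Whether these starts are used in the cultured cells was not tested. Each run is the 250 bases before the first transcription start in RefSeq (GRCm38.p6), 5′ to 3′ on the strand of the gene. They are Nr1h3 (chr2:91195117-91195366, minus strand), Vdr (chr15:97908297-97908546, minus), Nr1i3 (chr1:171213720-171213969, plus) and Nr2f2 (chr7:70366747-70366996, minus). Capitals mark matches, on either strand, to the nuclear receptor core AGGTCA, the GC box GGGCGG, the E-box CACGTG, the cAMP response element TGACGTCA or the PU.1 core GAGGAAGT.
Nr1h3: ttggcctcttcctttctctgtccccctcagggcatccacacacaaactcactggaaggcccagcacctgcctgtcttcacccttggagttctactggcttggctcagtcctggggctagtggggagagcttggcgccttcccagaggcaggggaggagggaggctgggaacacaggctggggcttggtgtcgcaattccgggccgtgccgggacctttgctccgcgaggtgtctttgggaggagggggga
Vdr: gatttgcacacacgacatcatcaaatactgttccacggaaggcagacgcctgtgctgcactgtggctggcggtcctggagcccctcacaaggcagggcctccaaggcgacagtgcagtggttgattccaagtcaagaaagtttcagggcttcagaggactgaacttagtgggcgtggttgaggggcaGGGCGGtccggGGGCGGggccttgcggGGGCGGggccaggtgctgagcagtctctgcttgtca
Nr1i3: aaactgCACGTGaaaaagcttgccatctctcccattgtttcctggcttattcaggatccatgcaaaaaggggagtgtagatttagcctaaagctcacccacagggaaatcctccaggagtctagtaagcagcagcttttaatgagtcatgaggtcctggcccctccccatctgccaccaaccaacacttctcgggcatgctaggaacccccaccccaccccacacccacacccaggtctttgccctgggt
Nr2f2: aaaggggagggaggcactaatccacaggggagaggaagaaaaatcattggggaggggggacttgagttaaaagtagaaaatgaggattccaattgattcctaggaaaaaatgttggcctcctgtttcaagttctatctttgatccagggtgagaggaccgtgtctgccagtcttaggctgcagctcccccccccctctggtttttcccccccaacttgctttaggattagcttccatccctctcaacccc
Vdr held 3 GC boxes, whose first bases lie 63, 52 and 36 bases before the start, and Nr1i3 held 1 E-box at 244 bases. No match to the searched letters stood in the windows of Nr1h3 and Nr2f2, and the Nr2f2 window overlaps the gene B130024G19Rik. A window was found for 41 of the 45 members, all but Thra, Nr5a1, Hnf4g and Nr3c1. Of the 41, 21 (51.2%) held a GC box and 6 (14.6%) the receptor core, which none of these 4 did. Over all 27025 genes with such a window the shares were 33.0% and 13.8%. An E-box stood in 3 of the 41 (6.04% of all genes), and the cAMP response element and the PU.1 core in 1 each (1.60% and 2.42%). The G and C content of the printed windows was 63.2% for Nr1h3, 61.2% for Vdr, 53.2% for Nr1i3 and 50% for Nr2f2.

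The oxysterol receptors parted from each other. Nr1h3, which encodes LXRα, the oxysterol receptor abundant in macrophages and liver, had a wild-type signal of 2070 and one of 5140 on the array labelled knockout, 2.60-fold higher (1.38 ± 0.20). Its second probe gave 291 and 918, 3.30-fold higher (1.72 ± 0.20). Both probes of Nr1h3 were therefore higher on the same array by several times the scanner error, and the gene stayed above 2-fold in each alternative tried (1.36 to 1.56). Nr1h2, encoding LXRβ, found in most tissues, had signals of 3610 and 4080, a difference of 0.24 ± 0.20. Nr1h4, the bile acid receptor FXR, passed background with the knockout label only (7.76 and 10.3), a signal that would not have counted as such on the wild-type array, and no fold is given. Nr1h3 overlaps Acp2 in the RefSeq gene table, and both Acp2 probes differed little (0.23 and 0.28). Markers of macrophages and dendritic cells were higher on the same array in 10 of 11 measured genes, 3 of them by at least 2-fold (Adgre1, Mrc1 and C1qc), with a median of 0.75, no measured marker below background, and summed signals of 87223 and 90818. Siglech, the only lower marker, made up most of that sum (74900 and 67500), and the other 10 summed to 12323 and 23318. Cd68 was not matched to a probe. Their part in the Nr1h3 difference was not tested.

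Genes that LXR is known to switch on did not share one direction. All 7 listed targets were measured on both arrays, 3 higher and 4 lower, with a median of -0.11. That median turned to 0.079 after centring on the median, 0.075 with quantile normalization, 0.082 with the deposited values and 0.034 with normexp. It stayed negative with the other alternatives. Scd1, which desaturates fatty acids, was 2.30-fold lower, with signals of 1480 and 616 (-1.20 ± 0.20), and within 2-fold with normexp (-0.86). The cholesterol exporters Abca1 and Abcg1 had differences of -0.13 and 0.43, Lpcat3, a phospholipid acyltransferase, one of -0.70, and Apoe, the lipoprotein of macrophages and liver, one of 0.90.

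Vdr, the vitamin D receptor, was dim, with signals of 32.2 and 73.8 against lowest detectable signals of 24.6 and 9.76. With the knockout label it was 2.40-fold higher (1.26 ± 0.30). With the normexp alternative the direction turned, to -0.44. Of 5 vitamin D targets, only S100g, a calcium-binding protein, was measured on both arrays (274 and 206, -0.35 ± 0.21), and Cyp24a1, the vitamin D catabolic enzyme that the receptor strongly induces, was below background on both (4.96 and 2.93).

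Nr1i3 encodes CAR, a xenobiotic receptor known from liver and had 2 probes, of which 1 was measurable. The brighter gave 1110 and 2320, 2.19-fold higher on the array labelled knockout (1.13 ± 0.20). The other was below background on both arrays (6.08 and 2.24), and with the mean over both probes the difference turned to -0.12. The gene overlaps Tomm40l, a mitochondrial import gene, whose probe gave nearly equal signals of 402 and 406 (0.08 ± 0.21). Of 5 liver markers, Apoa1, Ttr and Fgb were below background on both arrays and Alb in the wild type (signals of 7.22 and 10.4), while Serpina1a had signals of 570 and 1090. Nr1i2, encoding PXR, the related xenobiotic receptor, was below background on both arrays (5.29 and 2.08).

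The receptors for fatty acids were within 2-fold. Ppard had signals of 445 and 458 (0.11 ± 0.21), and turned to -0.01 with normexp. Ppara, the form that drives fatty acid oxidation in liver, was 103 and 78.9 by its brightest probe (-0.32 ± 0.22, and -0.75 with normexp), and its 2 other probes were not well above background on the wild-type array. The 12 PPAR targets were all measured, 8 higher and 4 lower, with a median of 0.27. Fabp4, a fatty acid carrier of fat cells and macrophages, was 2.48-fold higher (678 and 1610), and Cd36, a fatty acid uptake receptor, was 2.16-fold lower (77.9 and 34.5).

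All 3 retinoic acid receptor genes were measured, and none passed 2-fold. Rara had signals of 1590 and 2260 by its brighter probe (0.57 ± 0.20) but 456 and 446 by the other (0.03 ± 0.21). Rarg was 768 and 1060 (0.53 ± 0.20), and Rarb, which retinoic acid itself induces in many cells, was dim at 78.2 and 79.3 (0.09 ± 0.23). Rarb turned to -0.58 with normexp. Retinoic acid targets were split, with 5 of 8 measured genes higher and 3 lower. Their median of 0.24 turned to -0.39 with normexp and to -0.02 with the mean over probes. Tgm2, a transglutaminase of macrophages and endothelium, was 2.39-fold higher (1360 and 3110) and 0.73 by its second probe, just within 2-fold as a mean over both (0.99). Stra6, a retinol transporter, was 2.56-fold lower (330 and 123, -1.36 ± 0.21). Ccr9, the gut-homing receptor that retinoic acid induces in T cells, had a difference of -0.75.

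Among the retinoid X receptors, the shared partners, Rxrb had signals of 4340 and 4760 (0.20 ± 0.20) and Rxra dim ones of 36.4 and 39.8 (0.19 ± 0.30), both within the scanner error. Rxra turned to -0.85 with normexp and to -0.12 with the mean over probes. Rxrg, the form known from muscle and brain, gave 477 and 360 by its brighter probe (-0.34 ± 0.21) and 75.4 and 202 by the other, 2.80-fold higher (1.49 ± 0.22). The direction of Rxrg on these arrays thus depends on the probe, and the mean over probes was 0.57.

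Thra, the thyroid hormone receptor gene found in most tissues, had signals of 1760 and 2320 (0.46 ± 0.20). Its second probe was below background on both arrays, and the mean over the 2 turned to -0.22. Thrb passed background with the knockout label only (14.9 and 27.4), at least 1.17-fold higher there, a bound set by the lowest signal counted as above background on the wild-type array. Of 5 thyroid hormone targets, 2 were measured on both arrays, with a median of 1.33 and one of -0.01 with normexp. Me1, malic enzyme, was 3.13-fold higher but dim (26.0 and 77.8), and turned to -0.32 with normexp. Klf9, a target of thyroid hormone and glucocorticoids alike, was 2.02-fold higher (139 and 269), and 0.30 with normexp.

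Of the clock receptors Nr1d2 lay within the scanner error, Rora was slightly higher on the array labelled knockout, and Rorb was lower there. Nr1d2, encoding REV-ERBβ, a repressor of the clock gene Arntl, had signals of 628 and 532 (-0.17 ± 0.21), and 0.01 after centring on the median. Its relative Nr1d1, which overlaps Thra in the gene table, was below background on both arrays (5.10 and 2.07). Rora, an activator at the same sites that also acts in several lymphoid lineages, was 259 and 301 (0.28 ± 0.21), and 0.03 with normexp. Rorb, known from brain and retina, had the lower signal by its brighter probe (65.3 and 35.8, 1.74-fold, -0.80 ± 0.25), 17.6 on both arrays by the other, and past 2-fold with normexp (-1.07). All 4 measured REV-ERB and ROR targets were higher on that array, within 2-fold: Arntl with 0.44, Nfil3, a repressor of the clock with roles in lymphocytes, with 0.45, Cry1 with 0.59 and Clock with 0.13. The Clock value lay within its scanner error of 0.20. Npas2, also a listed target, was below background on both arrays.

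The COUP-TF receptors, orphans known from stroma, vessels and developing organs, were all higher on the array labelled knockout. Nr2f2 had signals of 116 and 244, 2.20-fold (1.14 ± 0.21), but 0.33 with normexp. Nr2f1 was 582 and 1010 by its brighter probe (1.82-fold, 0.86 ± 0.20) and 84.2 and 153 by the other (0.93 ± 0.22), and passed 2-fold after centring on the median (1.05). Nr2f6, which restrains cytokine genes in T cells, was 532 and 784 (1.54-fold, 0.62 ± 0.20). Stromal and endothelial markers were higher on the same array in 6 of 8 genes, 3 by at least 2-fold (Col1a2, Pdgfrb and Lyve1). The 2 lower ones were Pecam1 (-0.44, beyond the scanner error) and Cdh5 (-0.045, within it). Over all 8 the median was 0.89, no marker was below background on either array, and summed signals were 3879 and 6264. The part of stromal and endothelial cells in the COUP-TF differences was not tested.

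The testicular orphan receptors Nr2c1 and Nr2c2, which bind the same repeats as retinoid receptors, went the other way. Nr2c2 had signals of 389 and 191 (1.95-fold lower, -0.96 ± 0.21) and, by its second probe, 68.5 and 31.2 (2.10-fold lower, -1.07 ± 0.25), so it lay at the edge of 2-fold and passed it as a mean over probes (-1.02). It overlaps Mrps25, whose probes gave 0.60 and -0.31. Nr2c1 was 253 and 172 (-0.49 ± 0.21) by its brighter probe and 33.6 and 39.7 (0.31 ± 0.31) by the other, which do not share a direction. Nr2e3, the photoreceptor-specific receptor, was the only member seen on the wild-type array alone, with signals of 34.8 and 5.97, at least 3.41-fold lower on the array labelled knockout. That pattern held for 0.692% of all genes. Nr2e1, a receptor of neural stem cells, and Hnf4a and Hnf4g, receptors of liver and gut, were below background on both arrays.

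The probes of the glucocorticoid receptor gene Nr3c1 differed in direction. The bright probe gave 9100 and 9870 (0.18 ± 0.20), within the scanner error, and the dimmer probe 159 and 87.7 (1.73-fold lower, -0.79 ± 0.21). With the mean over probes the difference was -0.31. All 11 glucocorticoid targets were measured, 8 higher and 3 lower, with a median of 0.27. Tsc22d3, encoding GILZ, a glucocorticoid-induced inhibitor of T cell activation, was 11100 and 15300 (0.53 ± 0.20), Fkbp5, a chaperone that dampens the receptor, had a difference of 0.27, Per1 one of 0.85 and Ddit4, a stress-induced mTOR inhibitor, one of 0.86. Klf9, given above, was the 1 target past 2-fold.

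Of the other steroid receptors, Esr2 was bright and the rest were dim. Nr3c2, the mineralocorticoid receptor, was seen on the array labelled knockout only (5.35 and 27.3, at least 1.16-fold higher), and so was Pgr, the progesterone receptor (17.8 and 19.6), with no fold given. Esr1, oestrogen receptor α, had 3 probes, of which 2 were below background on both arrays (5 and 4.57, and 5.91 and 7.54). The other probe was spotted 10 times on each array. Its spots ran from 28.2 to 42.3 with a median of 36.6 for the wild type and from 35.8 to 43.8 with a median of 40.5 for the knockout label, so the arrays overlap, and the difference of the means was 0.23 ± 0.30, which turned to -0.87 with normexp. The SD over these spots was 0.19 and 0.09 on the log2 scale. Esr2, oestrogen receptor β, was 2480 and 1910 (-0.31 ± 0.20).

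Esrra, encoding ERRα, which drives genes of mitochondrial respiration and is used by activated T cells, was 4990 and 5520 (0.21 ± 0.20). Esrrg was dim (28.2 and 45.1, 0.74 ± 0.33) and turned to -0.73 with normexp, and Esrrb passed background with the knockout label only (25 and 18.1), with no fold given. In all, 6 of the 45 members were seen on the array labelled knockout alone, as were 8.57% of all genes. For Nr1h4, Pgr and Esrrb the signal there lay below 24.6, the lowest flagged signal on the wild-type array.

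The NR4A receptors were uneven in detection. Nr4a1, encoding NUR77, a marker of T cell receptor signalling, had signals of 2300 and 2570 (0.23 ± 0.20). Nr4a2 passed background with the knockout label only, by both its probes (23.7 and 39.9, at least 1.70-fold higher, and 15.5 on both arrays). None of the 10 spots of Nr4a3 was well above background on either array, with medians of 5.29 and 2.12. Of 10 immediate early genes, which the same signals switch on, 6 were measured on both arrays, 2 higher and 4 lower, all within 2-fold, with a median of -0.06. Egr1 had a difference of 0.04, Egr2 one of -0.09 and Dusp2 one of -0.03, all within the scanner error. Fosb (-0.67), Jun (-0.23) and Fos (0.265) lay beyond theirs. Genes studied with NR4A in exhausted T cells had a median of -0.09 (-0.33 with normexp), 3 of 9 higher and 6 lower, with Havcr2 (TIM-3) at 0.85 and Cd38 at -0.93.

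The remaining orphans were dim or absent from the signal. Nr5a1, the steroidogenic factor SF-1, had signals of 45.8 and 36.0 (-0.28 ± 0.27) and Nr5a2, its relative in liver and gut, 50.4 and 44.4 (-0.12 ± 0.26). With normexp they were -1.02 and -0.88, and Nr5a2 turned to 0.07 after centring on the median. Nr6a1, a germ cell receptor, and Nr0b1 and Nr0b2, which lack a DNA-binding domain and repress other receptors, were below background on both arrays. The 9 members below background on both arrays had signals between 5.02 and 18.7 with the wild type and between 2.00 and 4.20 with the knockout label.

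Cofactors were measurable throughout, and most lay close to equal. All 14 coactivators were above background on both arrays, 10 higher and 4 lower, with a median of 0.11, and 13 lay within 2-fold. Ncoa7, a coactivator that also carries an oxidation-resistance domain, had signals of 381 and 2270, 6.23-fold higher (2.64 ± 0.20). Its second probe gave 26.7 and 20.9 and passed background with the knockout label only, and the mean over probes was 1.18. Ncoa1, Ncoa2 and Ncoa3, the steroid receptor coactivators, had differences of 0.17, 0.10 and 0.12. Among 10 corepressors 4 were higher and 6 lower, with a median of -0.11. Lcor, a ligand-dependent corepressor, was 3.48-fold lower but dim (70.6 and 19.4, -1.80 ± 0.28). Ncor1 had a difference of -0.02 and Tbl1xr1, which exchanges the complexes, one of -0.78.

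Enzymes that make or remove ligands were dim for the most part, and 7 of 15 were measured on both arrays. Of these 6 were higher and 1 lower, with a median of 0.35, which turned to -0.40 with normexp. Ch25h, which makes the oxysterol 25-hydroxycholesterol, was 2.66-fold higher (60.1 and 153), and Cyp7b1, which breaks oxysterols down, 2.29-fold higher (38.2 and 83.8). With normexp these were 0.04 and -0.40. Hsd11b1, which regenerates active glucocorticoid, had signals of 1366 and 1659 (0.34 ± 0.20). Aldh1a2 and Aldh1a3, which make retinoic acid, had differences of 0.35 and 0.38, and Cyp27b1, which makes active vitamin D, was below background on both arrays.

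**Figure D3:**
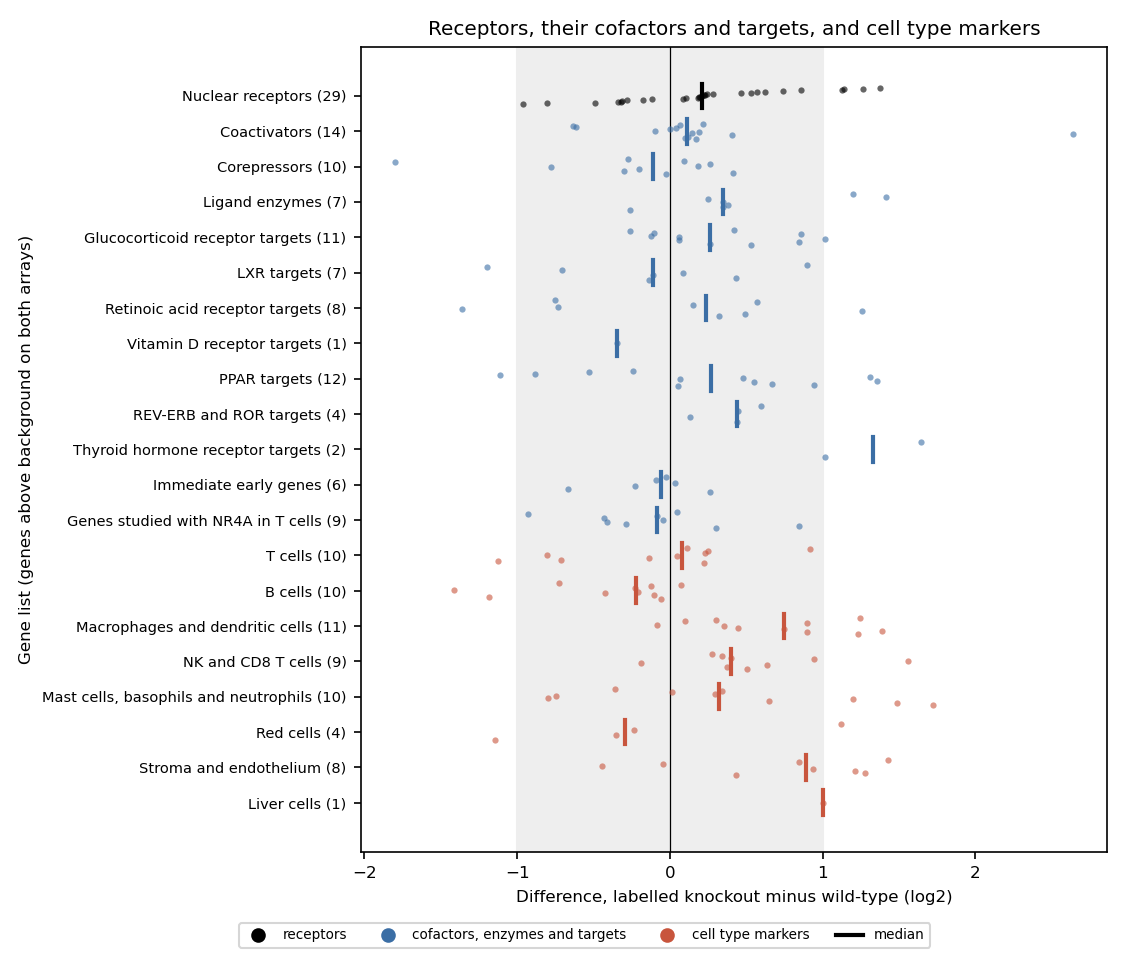
Differences in log2 signal (labelled knockout minus wild-type, horizontal axis) of the nuclear receptors (black), of their cofactors, ligand enzymes and target genes (blue) and of cell type markers (red), with 1 point per gene well above background on both arrays, the median as a bar and the number of genes after each name. The receptor median is 0.21, the macrophage and dendritic cell markers have a median of 0.75, the stromal markers one of 0.89, and the B cell markers one of -0.22.

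Where several probes of a gene were well above background on both arrays, they did not always share a direction. Of 7 such receptors, 4 did, namely Nr1h3, Nr2f1, Nr2c2 and Rara, and the probes of Rxrg, Nr2c1 and Nr3c1 did not. For Rara, Nr2c1 and Nr3c1, 1 of the 2 probes lay within its scanner error (0.03, 0.31 and 0.18). Among the 4 receptors past 2-fold, Nr1h3 was thus the one with a second measured probe, and that probe passed 2-fold too. Markers of mast cells, basophils and neutrophils were higher in 7 of 10 genes, 3 of them by at least 2-fold (Cpa3, Fcer1a and Mcpt4). The 3 lower markers lay within 2-fold, the median was 0.32, and summed signals were 126202 and 129408 (34202 and 40408 without S100a9). Of 4 measured red cell markers 1 was higher and 3 lower (median -0.29, 4596 and 3572). The part of these cells in the receptor values was not tested.

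**Figure D4:**
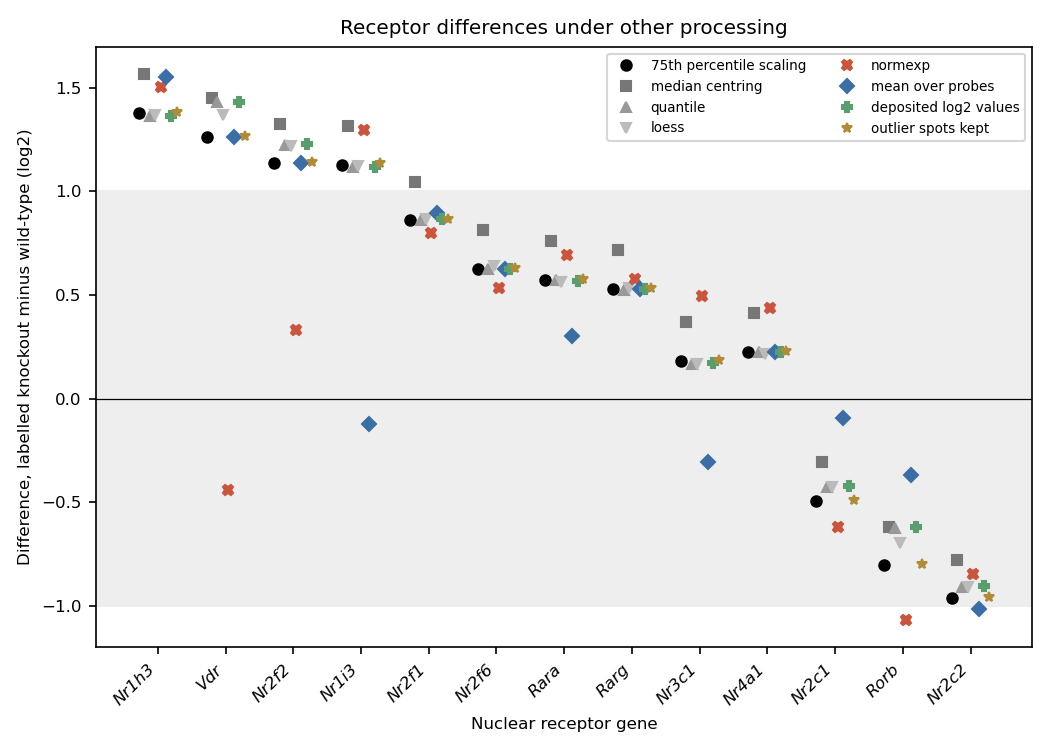
Differences in log2 signal (labelled knockout minus wild-type, vertical axis) of 13 receptor genes under 8 ways of processing, with the 2-fold range shaded. Nr1h3 lies above 1 under each of them, Vdr falls to -0.44 and Nr2f2 to 0.33 with normexp, and Nr1i3 falls to -0.12 with the mean over probes.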

How the data were processed

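RNA of 1 wild-type and 1 knockout culture, grouped by the genotype label, was measured on 1-colour (Cy3) Agilent arrays. Agilent Feature Extraction 11.0.1.1 made the deposited scanner files, per the submitters' processing notes, and they hold each spot's processed intensity, background-subtracted per the file headers, beside its error and flags. The deposited value table holds log2 values whose normalization the sources used here do not state.

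Control and outlier spots (228 and 138 of 43020 gene spots) were left out, no gene spot was saturated, and no outlier spot belonged to a receptor. Spots of a probe were averaged, and log2 signals were taken relative to each array's 75th percentile. Of 39411 probes, 27220 were named through RefSeq accessions (GRCm38.p6, used for names and promoters only). The other 12191 were not analysed here. A gene took the value of its brightest probe among those that passed the background flag with either genotype, and a difference of at least 1 (2-fold) on both arrays counted. A gene seen on 1 array got a bound, the flagged signal over the unflagged one, the latter raised to the lowest flagged signal of its array where it lay under it. The scanner error combines the relative errors of both arrays. With 1 array per genotype no p-value was computed, and the number of arrays limits the precision.

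All 45 receptors are accounted for, and the genes named from 12 lists of cofactors, enzymes and targets are up to 2 per list past 2-fold, though some list genes are not reported here. Other list genes, named for their role, were chosen after their values were seen. The members and lists (20 lists in all, 8 of them of cell type markers) were chosen with earlier results of these data known. Alternatives used limma 3.58.1 in R 4.3.3 for quantile, loess and normexp (offset 50, on median intensities, since the files used here give no mean intensity). The functions were tested on simulated data.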

Additional observations from a re-analysis of the deposited data

How the results depend on the processing

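No paired analysis was possible because each genotype has 1 array, and for the same reason none could be left out. The 4 receptors at least 2-fold higher were the same with quantile normalization, loess, the deposited log2 values and outlier spots kept, and centring on the median added Nr2f1. With normexp 2 were higher (Nr1h3 and Nr1i3) and 2 lower (Rorb and Nr5a1), the median difference was -0.012 beside -0.057 over all genes, Vdr turned to -0.442, and the list genes Cyp7b1 and Me1 turned to -0.402 and -0.324. With the mean over probes 3 were higher and 1 lower (Nr2c2), and Nr1i3 turned to -0.123, its second probe being below background. At 1.5-fold 7 were higher and 2 lower (11% and 12% of all genes), at 3-fold 0 in either direction (0.656% and 0.864%), and with no filter on background flags 5 of 45 were higher and 7 lower (5.33% and 20.8%). The count of 29 receptors well above background was 36 with the scanner's weaker flag for positive and significant signal and 29 with outlier spots kept. Of 203 member values under 7 alternatives, 28 moved by more than the scanner error, 18 of them with normexp and 10 with the mean over probes, and 12 of 29 receptors changed sign in at least 1 alternative. The alternatives for the list genes were chosen after seeing the data. Over all genes normexp put 206 at least 2-fold higher and 1179 lower, the mean over probes 422 and 500, loess 587 and 371, and the deposited values 631 and 357. The cause of these shifts was not tested. Signals near background, as for Vdr, Rxra and Esrrg, limit what can be read.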
